A study of Cucumis sativus with 4 samples.

Results

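The 300 genes with the highest mean read count in cucumber (Cucumis sativus) fruit at anthesis are described here. They were the first 300 of 24317 listed genes, or 1.44% of the 20868 genes with a mean above 0, when sorted by the mean normalized read count in the authors' deposited table. The members were thus chosen by their measured mean, so their abundance is a description and was not tested. The mean pools both genotypes, so a gene can enter through the genotype where it is high. In 23 members the level worked out for 1 genotype lay under the lowest member's mean of 9529, in 18 of them on the numerator side and in 5 on the denominator side. The members and their cut at 300 were chosen with earlier results of these data known.

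The study compared fruits of CsCRC-RNAi plants with those of wild-type plants, labelled R1461 in the design, with 2 libraries of total RNA per genotype. The RNAi group carries an RNA interference construct against CsCRC, the cucumber CRABS CLAW gene. The labels call the RNAi group "lines" without saying how many, and do not give the promoter that drives the construct. They name the tissue fruit and the source female bud, and do not say whether the libraries came from separate plants beyond calling them biological replicates.

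In cucumber the ovary sits below the petals, so the young fruit is already formed when the flower opens at anthesis. CRABS CLAW belongs to the YABBY family of plant transcription factors and is known in Arabidopsis for carpel and nectary development. In plant tissues a small part of the genes usually supplies a large part of the messenger RNA, and proteins of translation, the cytoskeleton and basic metabolism are common among them. Abundant transcripts therefore make up much of what a sequencing library reads. A read count also grows with transcript length, which the table does not give, so the ranks used here order genes by reads and not by transcript copies.

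The table pairs no gene ID with a name or a description, and 0 of its IDs were found in the RefSeq gene table of the Cucumber_9930_V3 assembly. No role is given to any member for that reason, markers of tissue or cell type were not checked, and the silenced gene was not used here. The genotype in the numerator of the fold changes is not named in the table. They are referred to as the numerator and denominator genotypes, and no direction is tied to the silencing of CsCRC. It also holds no value per library: each member has 1 mean over all libraries, and a fold change with its standard error (SE). Read steps in the lowest means gave size factors of 1.06 and 1.05 for the numerator libraries and 0.993 and 0.905 for the denominator libraries. They correspond to about 21800000 to 25600000 reads on genes per library.

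The 300 members together held 22.3% of the summed mean normalized reads of all genes, and the next 300 genes by mean held 9.46%. No gene dominated the fruit: the most abundant gene alone accounted for 0.477% of the sum, the first 10 for 3.34%, and the first 100 for 12.3%. Within the members, the first 83 genes supplied 50% of their reads. Over all genes, 1589 were needed to reach 50%. The median member had a mean of 13251 normalized reads, 25.8 times the median of 514 among the 18461 genes that carry an adjusted p. The last member, CsaV3_3G035560 at rank 300, had a mean of 9529, and the first gene outside, CsaV3_3G041720, had 9524. The limit thus falls within a smooth decline and marks no break in abundance.

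**Figure D1:**
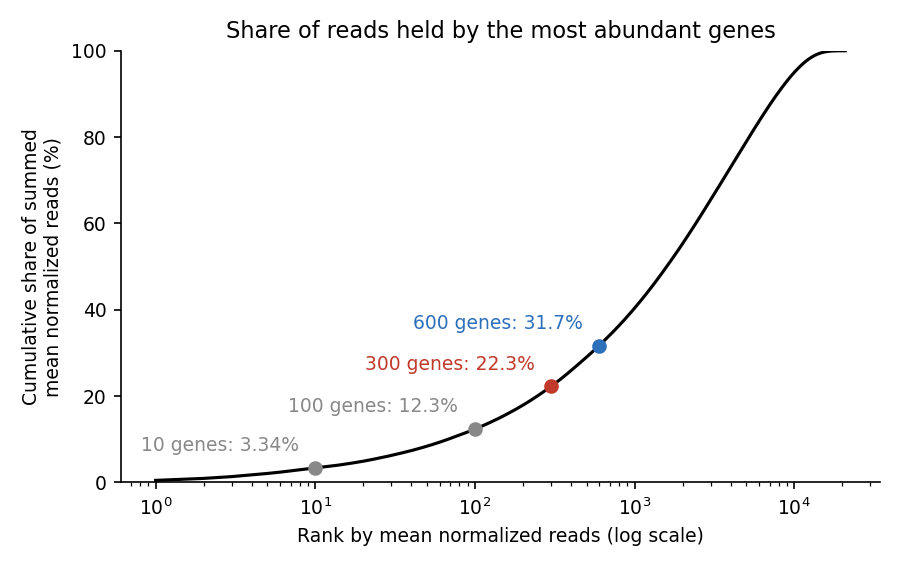
Cumulative share of the summed mean normalized reads (y axis, %) against the rank of a gene by its mean (x axis, log scale). Points mark the first 10, 100, 300 and 600 genes at 3.34%, 12.3%, 22.3% and 31.7%, and the curve rises without a step.

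CsaV3_2G014690 was the most abundant gene, with a mean of 114955 normalized reads. CsaV3_4G000060 followed at 109958 and CsaV3_6G040100 at 100951, so rank 1 stood 12.1 times above rank 300. The level in each genotype was worked out from the mean and the fold change, which together fix it when both genotypes have the same number of libraries. CsaV3_2G014690 came to 119347 normalized reads in the numerator and 110563 in the denominator genotype. CsaV3_4G000060 came to 117910 and 102006, and CsaV3_6G040100 to 101019 and 100882, in the same order. The authors' deposited table gave these 3 genes log2 fold changes of 0.11 ± 0.13, 0.21 ± 0.16 and 0.0020 ± 0.13 (SE). None of the 3 passed the test there (DESeq2 adjusted p = 1.00 for each, 0 calls, and 0 with an unadjusted p under 0.05).

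The same 4 genes headed both genotypes in the same order, and 9 of the first 10 in the numerator genotype were also among the first 10 in the denominator genotype. By fold, the members at ranks 6, 7 and 10 lay furthest apart among the first 10. Rank 6 came to 61815 and 82261 normalized reads in the numerator and denominator genotypes and the authors' deposited table gave it a log2 fold change of -0.41 ± 0.17 (SE). Rank 7 came to 53896 and 89191, at -0.73 ± 0.52 in that table, and rank 10 to 38940 and 50084, at -0.36 ± 0.15. All 3 were lower in the numerator genotype, and none passed the test in the authors' deposited table (DESeq2 adjusted p = 0.775, 1.00 and 0.755).

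**Figure D2:**
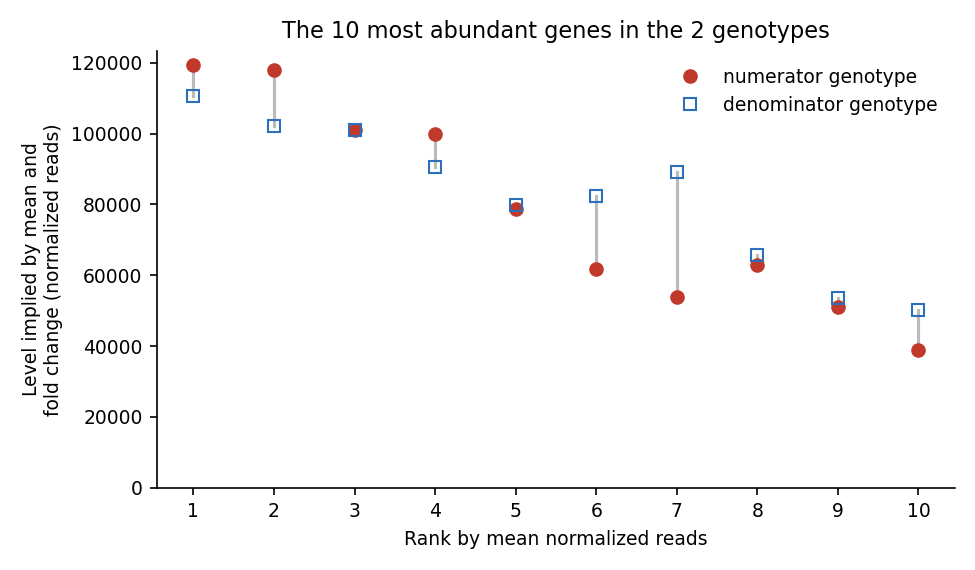
Levels of the 10 most abundant genes in the 2 genotypes (y axis, normalized reads implied by the mean and the fold change) by rank (x axis), with filled circles for the numerator and open squares for the denominator. The pair of points lies furthest apart at rank 7, at 53896 and 89191, and the points carry no error because values per library are not in the table.

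Most members differed little between the genotypes. Their median absolute log2 fold change was 0.08, a 1.06-fold difference, and the upper quartile was 0.16, or 1.12-fold. In 207 members (69.0%) the deposited fold change was below 1.1-fold. The signs were nearly balanced, with 154 members lower and 146 higher in the numerator genotype and a median log2 fold change of -0.005. The next 300 genes had a median absolute value of 0.09, an upper quartile of 0.15 and 72.3% of genes below 1.1-fold. Over all genes with an adjusted p, where errors are wider, the median was 0.13 and 51.0% lay below 1.1-fold. The 6063 genes with a mean of 1000 or more were closer to the members, with a median of 0.09 and 67.6% below 1.1-fold. The 90th percentile was 1.23-fold in the members, 1.17-fold in the next 300 genes and 1.19-fold in those 6063 genes.

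A p above the threshold does not show that a transcript held steady, so the interval of each fold change was used for that. The 95% interval (the normal interval of the log2 fold change from its SE) lay wholly within 1.5-fold in either direction for 263 of the 300 members (87.7%). The background was 51.0% of all genes with an adjusted p, where errors are wider. It was 89.2% of the 6063 genes with a mean of 1000 or more, and 279 of 300 (93.0%) in the next 300 genes. The members' share was thus slightly below both of these, and the difference was not tested because genes are not replicates. The 263 members inside the limit supplied 83.7% of the members' reads. Within 2-fold lay the intervals of 286 members (95.3%), against a background of 74.0% and 97.3% in the next 300 genes.

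Fewer of the most abundant members met the limit. The interval lay within 1.5-fold for 80 of the first 100 members, for 91 of the middle 100 and for 92 of the last 100. The median absolute log2 fold change in these blocks was 0.09, 0.07 and 0.07. Point estimates above 1.5-fold were found for 9 members, 5 of them in the first 100, and for 5 of the next 300.

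**Figure D3:**
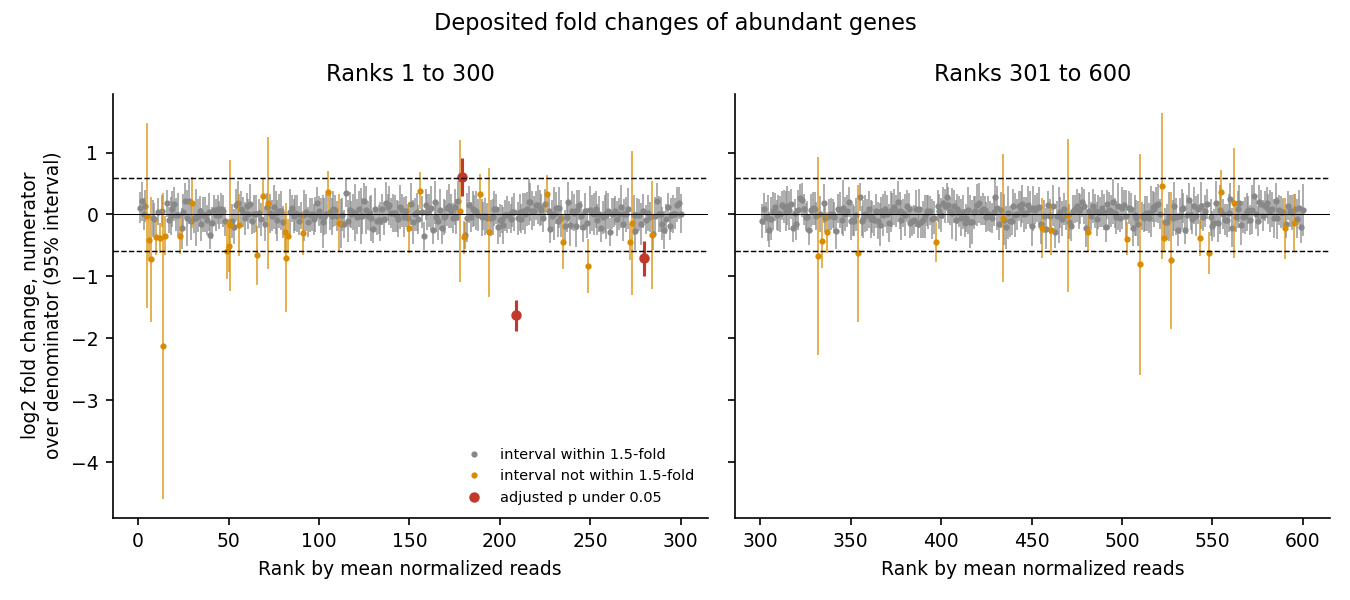
Deposited log2 fold change of each gene, numerator over denominator, with its 95% interval (y axis), by rank (x axis), for the members on the left and the next 300 genes on the right. Dashed lines mark 1.5-fold; 263 intervals on the left and 279 on the right lie between them (grey), the others are orange, and the 3 genes with an adjusted p under 0.05 are red.

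The 37 members whose interval reached beyond 1.5-fold fell into distinct kinds. In 10 the SE was so large (above 0.3) that no fold change could have placed the interval inside the limit. Of the other 27, 21 had an unadjusted p under 0.05 and 6 did not. These 27 leaned to the lower side, with 20 lower and 7 higher in the numerator genotype, while the next 300 genes had 12 lower and 1 higher of this kind. Genes with a mean of 1000 or more had 326 lower and 234 higher, and all genes with an adjusted p had 1478 on each side. The difference between these splits was not tested. The lower members at ranks 209, 235, 249, 272 and 280 had numerator levels under 9529, so they are members through the denominator genotype. The 7 higher members lay above 9529 in both genotypes. The members' split is thus not independent of how they were chosen.

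Of the 300 members, 3 had an adjusted p under 0.05 in the DESeq2 results of the authors' deposited table, 2 lower and 1 higher in the numerator genotype. The background was 0.303% of all genes adjusted, 0.238% lower and 0.0650% higher. Of the next 300 genes 0 were called (DESeq2, with 14 at an unadjusted p under 0.05). At 3 genes the count is too small to set the members apart from the rest. Both members called lower passed the limit on the mean through the denominator genotype, since their numerator levels lay under 9529, and the member called higher lay above it in both genotypes. The members called were at ranks 179, 209 and 280, and 0 were in the first 100 (DESeq2, with 11 of that 100 at an unadjusted p under 0.05). CsaV3_5G025900, at rank 209, had levels of 5539 and 17165 normalized reads in the numerator and denominator genotypes, a 3.1-fold difference. The authors' deposited table lists it at -1.63 ± 0.12 on the log2 scale (SE, DESeq2 adjusted p = 9.67e-35). By level it ranked 88 in the denominator genotype and 711 in the numerator genotype, the widest shift in rank of any member.

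CsaV3_6G051520, at rank 280, had levels of 7441 and 12152 normalized reads in the numerator and denominator genotypes. This is a 1.63-fold difference, for which the authors' deposited table lists a log2 fold change of -0.71 with an SE of 0.14 (DESeq2 adjusted p = 0.000867). CsaV3_1G017250, at rank 179, was the 1 member called higher in the numerator genotype, with levels of 14652 and 9675. The difference was 1.51-fold, and the authors' deposited table lists 0.60 ± 0.16 on the log2 scale (SE, DESeq2 adjusted p = 0.0455). That call was lost when the adjustment covered all genes that carry a p (Benjamini-Hochberg adjusted p = 0.0514 from the deposited DESeq2 p-values). The member at rank 249 lay just outside the threshold, with levels of 7530 and 13440. Its numerator level lay under 9529, so it is a member through the denominator genotype. The authors' deposited table gave it -0.84 ± 0.22 on the log2 scale (SE, DESeq2 adjusted p = 0.0511).

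Before adjustment, 31 members (10.3%) had a p under 0.05 in the authors' deposited table, against a background of 4.15% and 14 genes (4.67%) in the next 300 genes. Of the 31, 24 were lower and 7 higher in the numerator genotype, where the backgrounds were 2.88% and 1.27%. The first 100 members had 10 lower and 1 higher, and the last 100 had 9 lower and 1 higher. In the middle 100 the split was 5 and 5. Most of these differences were small, with a median of 1.27-fold, and for 10 of the 31 the whole 95% interval stayed within 1.5-fold. Of the 31, 28 did not pass the adjustment over all genes. In the last 100, the lower member at rank 228 had a numerator level of 10047, above the lowest member's mean of 9529. The other lower members there lay under it, from 5539 at rank 209 to 9444 at rank 256. They are thus members through the denominator genotype, and the split in that block is not independent of how members were chosen.

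Reads held by the members as a whole shifted little between the genotypes. They made up 22.0% of the summed level in the numerator and 22.5% in the denominator genotype, a difference of -0.47 percentage points. Without the member at rank 14 the difference was -0.27 points, and without the 10 members of large SE it was -0.08 points. No error can be given for these shares because the table holds no value per library. The next 300 genes held 9.51% and 9.42%, in the same order. When genes were ranked within each genotype by their level, 285 members were among the first 300 of the numerator genotype and 289 among those of the denominator genotype. Both lists held 274 of the members.

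The deposited errors of the members were small and much alike. Their median SE was 0.15 on the log2 scale, with quartiles of 0.13 and 0.16, and the next 300 genes had a median of 0.14. Solving the DESeq2 error formula for the variation between libraries of a genotype gave a median coefficient of variation (CV) of 10.01% for the members, with quartiles of 8.75% and 11.2%. It was 9.76% for the next 300 genes and 14.3% for all genes with an adjusted p. Counting error alone is 1.02% at the mean of rank 300. At its default settings DESeq2 draws this variation toward a trend over genes, so single genes may differ in it more than these values show. At the Wald score of the last gene called (3.79), a member needed a 1.46-fold change to pass at the median SE and a 1.33-fold change at the lowest SE of 0.11.

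The 10 members with an SE above 0.3 stood apart from the rest: the lowest of them had an SE of 0.45, and the next member below had 0.25. They had implied CVs from 31.0% to 87.4%. At the same settings DESeq2 leaves a gene that varies far more than the trend at its own estimate. They held 5.47% of the members' reads, and 6 of the 10 were in the first 100. In the next 300 genes there were 8 such genes, and among genes with a mean of 1000 or more there were 96, or 1.58%. For these 10 members the table cannot show steadiness within 1.5-fold, and no difference was found. None had an unadjusted p under 0.05 (0 of 10 by DESeq2, with 0 also after adjustment).

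The most extreme was the member at rank 14, with levels of 14245 and 61879 normalized reads in the numerator and denominator genotypes. The authors' deposited table gave it -2.12 ± 1.26 on the log2 scale (SE, DESeq2 adjusted p = 1.00), and its 95% interval ran from -4.59 to 0.35. It was the largest point difference among the members, larger than that of any member called. The member at rank 5 showed the opposite pattern, nearly equal levels of 78830 and 79949, and -0.02 ± 0.76 on the log2 scale (SE) according to the authors' deposited table. Its interval, from -1.52 to 1.48, allows more than a 2-fold change in either direction.

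**Figure D4:**
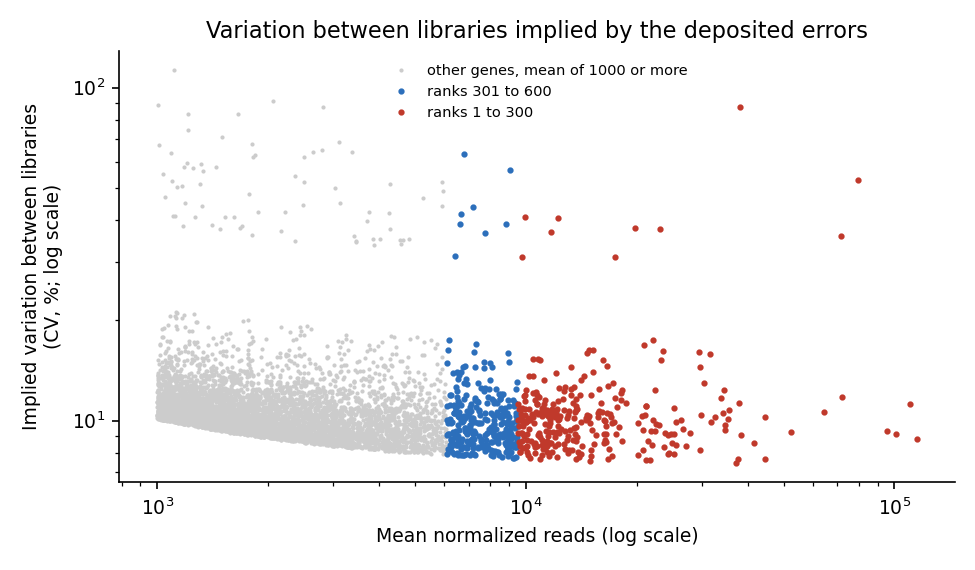
Variation between libraries implied by the deposited error (y axis, CV in %, log scale) against mean normalized reads (x axis, log scale), with 1 point per gene. Members (red) have a median of 10.01%, the next 300 genes (blue) 9.76%, and 10 members lie apart between 31.0% and 87.4%.

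The members were spread over all 7 chromosomes named in the gene IDs. Chromosome 6 held 59, chromosome 1 held 54, chromosome 3 held 51, chromosome 2 held 41, chromosomes 4 and 7 held 32 each and chromosome 5 held 30. Unplaced sequence (IDs with the prefix UN) held 1, at rank 127. Per 1000 genes with a mean above 0, the chromosomes ranged from 10.9 members on chromosome 5 to 17.7 on chromosome 1, and unplaced sequence had 1.63. In the next 300 genes the order differed, with chromosome 7 highest at 18.0 and chromosome 4 lowest of the placed chromosomes at 12.5. Chromosome 6 had 17.2 members per 1000 and 12.8 genes of the next 300. These counts are a description and were not tested.

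On the placed chromosomes, members supplied between 17.2% of the summed mean on chromosome 5 and 25.5% on chromosome 1. The first 5 genes came from chromosomes 2, 4, 6 and 3, and chromosome 5 had its most abundant gene at rank 18. The share of members with an interval within 1.5-fold ranged, on the same chromosomes, from 80.0% on chromosome 5 (24 of 30) to 92.6% on chromosome 1 (50 of 54). Of the 31 members with an unadjusted p under 0.05 (DESeq2), chromosome 5 held 7 among its 30 members. Chromosome 6 also held 7, among its 59 members, and the share over all members was 10.3%. The members at ranks 209, 261 and 272 on chromosome 5 and at rank 280 on chromosome 6 had numerator levels under 9529. These 4 are members through the denominator genotype, so the counts per chromosome are not independent of how members were chosen. Differences between chromosomes were not tested. The 3 called members lay on chromosomes 1, 5 and 6.

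**Figure D5:**
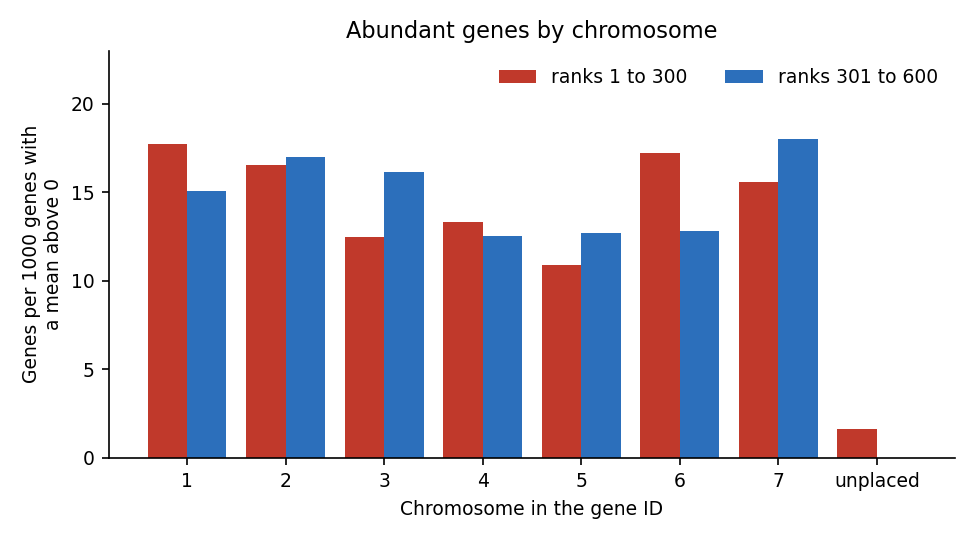
Number of abundant genes per 1000 genes with a mean above 0 (y axis) for each chromosome in the gene IDs (x axis), with red bars for the members and blue bars for the next 300 genes. Red bars run from 10.9 on chromosome 5 to 17.7 on chromosome 1, and unplaced sequence has 1.63 and no gene in the second group.

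Neighbouring members were counted in ID order. By this count, 10 members (5 pairs) were next to another member, and 16 of the next 300 genes (8 pairs) were next to another of them. How many pairs any list of 300 genes would hold was not worked out, so these counts are a description. Within 2 places there were 9 pairs of members, of which 4 had fold changes of the same sign and 5 of opposite sign. The pair with the largest differences was CsaV3_5G025900 and the member at rank 272, 2 places further on. That neighbour had levels of 8442 and 11478 normalized reads in the numerator and denominator genotypes. The authors' deposited table lists a log2 value of -0.44 ± 0.15 (SE, DESeq2 adjusted p = 0.382), so the neighbour lay on the same side and did not pass the test. Both genes of this pair had numerator levels under 9529, so both are members through the denominator genotype. Their shared side is thus not independent of how members were chosen. Whether neighbouring IDs share reads was not tested.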

How the data were processed

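Total RNA of 4 libraries, 2 per genotype, was sequenced after Trizol extraction and NEBNext Ultra library preparation, per the labels' protocols. The authors used HISAT2 and DESeq2, per the submitters' processing notes, but versions, counting tool and build were not given in the sources used here. Deposited by the authors was 1 table of their comparison. Its mean is a signal value that the authors made by dividing read counts by size factors and averaging over all libraries, as far as the column header, that of a DESeq2 table, tells. The deposited log2 fold change and SE are on the log2 scale. The Wald score as deposited was the ratio of fold change to SE within 2.2e-07. The deposited p-values by the authors are two-sided, and a Benjamini-Hochberg adjustment over 18461 genes gave their adjusted p within 0.344%.

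Genes were sorted by the deposited mean, ties by ID. Levels per genotype came from the mean and fold change, size factors from genes with a single read, and implied CVs from the SE. Computations used Python 3.11.15, pandas 2.3.3 and scipy 1.17.1. As a check of the code, estimates for 300 genes were drawn around known values with known SEs. The 95% interval covered the known value in 94% of genes. Coverage near 95% was set by that design, so it says nothing about the deposited SEs. Since the table holds no values per library, the authors' test is the main result, as planned for such a table. Reads per library were not recovered for the members. The members and lists were chosen with earlier results of these data known. The rule for named genes took the 3 most abundant members, ranks 300 and 301, and at most 2 called members in each direction; lists by description were not used because no ID matched. Members given by rank alone were chosen after their values were seen. P-values measure the spread between the deposited libraries.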

Additional observations from a re-analysis of the deposited data

How the results depend on the processing

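The count of 263 members with an interval within 1.5-fold stayed within 1.5 times under the settings tried on the same 300 genes. It was 229 with a 99% interval, 286 with a limit of 2-fold, and 263 after centring on the members' median. It was 80 of the first 100 genes, a share of 80.0% against 87.7% of the 300, and 542 of the first 600. The count of 3 members called was 2 at an adjusted p under 0.01, 4 at 0.10, 2 with all genes that carry a p in the adjustment, and 1 with a 2-fold limit added. It was 0 for the first 100 genes (DESeq2, 11 at an unadjusted p under 0.05) and 3 for the first 600. CsaV3_1G017250 no longer passed under the 0.01 threshold, the 2-fold limit or the wider adjustment, and CsaV3_6G051520 no longer passed under the 2-fold limit. The members' share of 22.3% was 22.1% when genes were ranked and summed by the numerator level, 22.5% by the denominator level, and 21.9% without the most abundant gene. Their median absolute log2 fold change of 0.0774 was 0.0898 for the first 100 genes. The settings below were chosen after seeing the data. The difference in share of -0.47 points was -0.27 without the member at rank 14 and -0.0776 without the 10 members of large SE. The count of 24 members lower at an unadjusted p under 0.05 was 24 after centring on the median of all genes with an adjusted p or of the members. These medians were 0.002 and -0.005 on the log2 scale, against a median SE of 0.15 for the members. Centring could thus hardly move this count or that of 263, and the unchanged counts say little. The planned fits on reads recovered per library, including those without each library in turn, were not run. No paired analysis was possible because no column holds a value per library or a replicate number. Counting error is 1.02% at rank 300. For the 10 members of large SE the interval bounds no change within 1.5-fold, and the cause of their errors was not tested.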
